A study of Homo sapiens with 6 samples.

Results

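The genes described here are 10 non-receptor tyrosine phosphatases, PTPN1, PTPN2, PTPN3, PTPN4, PTPN9, PTPN11, PTPN12, PTPN13, PTPN14 and PTPN18, matched by symbol among the 40173 genes of the count table. PTPN1 was chosen by its measured fall after silencing of FAM83H-AS1, so its values are given as a description with no test. The other 9 bear the same family name and were chosen with earlier results of these data known. They are not the whole family, since PTPN6, PTPN21 and PTPN23 were also tested and are not members. RNA-Seq was performed on A549 cells, a human lung adenocarcinoma line, transfected with an siRNA against the long noncoding RNA FAM83H-AS1 (silenced, 3 libraries) or with a negative control siRNA (control, 3 libraries) and harvested the next day. All cells were of this 1 line and all carried transfected siRNA. The labels do not say whether the 3 libraries of a group came from separate cultures, so p-values measure only the spread between libraries, which may be technical.

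Protein tyrosine phosphatases remove phosphate from tyrosine and so oppose the tyrosine kinases. The non-receptor enzymes share a catalytic domain in which a cysteine attacks the phosphate, and they differ in the flanking domains that place them in the cell. PTPN1 (PTP1B) is anchored to the endoplasmic reticulum and is known for dephosphorylating the insulin receptor, other receptor kinases and JAK kinases. PTPN2 is its closest relative.

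The coding sequence of the catalytic signature (8 residues, histidine and cysteine to the closing arginine) is shown because it is what the 10 members have in common. It was found once in each principal transcript. Capitals mark the codon of the catalytic cysteine, and the sequences are from GENCODE 29 transcripts on GRCh38, 5′ to 3′.
PTPN1: cacTGCagtgcaggcatcggcagg
PTPN2: cacTGTagtgcaggcattgggcgc
PTPN3: cacTGCagtgctggaataggtcga
PTPN4: catTGCagtgctggaatcggaaga
PTPN9: catTGCagtgcaggcattggcagg
PTPN11: cacTGCagtgctggaattggccgg
PTPN12: catTGCagtgcaggctgtggaaga
PTPN13: cacTGCagtgctggcattggacgt
PTPN14: cacTGTagtgctggggtgggaagg
PTPN18: cacTGCagtgcgggttgtgggcga

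These lie in coding exons. The stretch spans residues 214 to 221 of the 435 in PTPN1, and residues 2412 to 2419 of the 2490 in PTPN13, the longest member. Of the 24 bases, PTPN9 had 22 equal to PTPN1, PTPN11 had 20, and PTPN18 had the fewest, 16. In local alignments PTPN2 was nearest to PTPN1, with 58.7% identity over 402 aligned residues, while the other members had 35.1% to 43.3% over shorter stretches of 233 to 305 residues. PTPN3 and PTPN4 had 55.5% identity over 885 residues. PTPN1 lies on chromosome 20 from 50510321 to 50585241 on the plus strand, and PTPN14 on chromosome 1 from 214348696 to 214552449 on the minus strand (GRCh38).

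Libraries held 9738291 to 17742643 counts on 21021 to 22202 genes, and 15250 genes passed the filter on low counts, all 10 members among them. Control replicate 3 stood apart, with 3.22% of its counts on RNA5-8SP6 against 0.241% to 0.448% in the others and a TMM factor of 0.955. Its chi-square per degree of freedom was 29.9 and 25.4 against the other control libraries. The remaining replicate pairs had 4.23 to 10.4. That statistic kept RNA5-8SP6 among its genes, so it is not separate from the share of that gene, and it was not computed without it. With control replicate 3 left out, PTPN1 had a log2 fold change of -1.53 and PTPN14 one of 0.33 (adjusted p = 0.0222 by edgeR), and no other member passed. Levels are given as CPM after TMM normalization, where 1 count was worth 0.0591 to 0.103 CPM. The targeted RNA, FAM83H-AS1, had 141, 185 and 292 counts in control and 47, 48 and 75 in silenced libraries, a log2 fold change of -1.70 (SE 0.148). Of the 5 epithelial markers, KRT8 and KRT18 carried nearly all the signal. The summed CPM of the 5 was 2927 to 3450 in control and 2586 to 2624 in silenced cells. The 5 leukocyte markers summed to 124 to 142 CPM in control and 226 to 255 in silenced cells, nearly all of it CD68. Of the defining leukocyte genes CD3E and LYZ had no count in any library and PTPRC had none in control. The 4 fibroblast markers summed to 25.9 to 29.7 and 28.3 to 37.8 CPM, with PDGFRA at 0, and the 3 endothelial markers to 4.42 to 6.39 and 3.79 to 4.16 CPM. The part of these markers in the results was not tested. In bulk RNA, fewer cells expressing a gene and less RNA per cell cannot be told apart.

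PTPN1 stood at 105.7, 104.2 and 103.6 CPM in the control libraries and at 35.7, 33.7 and 39.3 CPM in the silenced libraries. The highest silenced library thus lay far below the lowest control library. The mean fell from 105 ± 1.08 to 36.2 ± 2.86 CPM (SD, n = 3), or 34.7% of control, a log2 fold change of -1.53 (SE 0.0806, 95% interval -1.70 to -1.35). The counts behind it were 1028, 1207 and 1752 in control and 366, 364 and 529 in silenced cells. Of the 15250 genes, 97 had a lower log2 fold change than PTPN1, 63 of them past an adjusted p of 0.05.

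PTPN2, the nuclear and endoplasmic reticulum relative that acts on JAK1 and STAT proteins, stood at 19.4, 22.2 and 22.1 CPM in control and 20.7, 24.4 and 19.1 CPM in silenced cells. The groups overlapped. The log2 fold change was 0.01 (SE 0.116, 95% interval -0.25 to 0.26), with an adjusted p of 0.983 by edgeR's quasi-likelihood test with Benjamini-Hochberg adjustment over all 15250 genes, the test used throughout. The interval leaves room for a change of either sign but not for one of the size seen in PTPN1. The table also holds a processed copy, PTPN2P1, with 27 to 63 counts per library, and whether reads were split between them is not given in the sources used here.

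**Figure D1:**
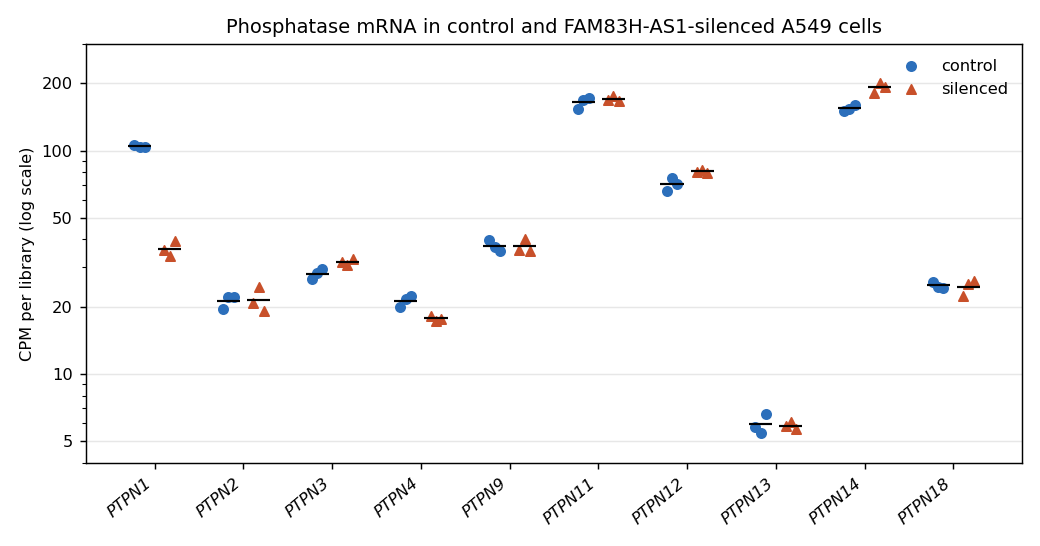
CPM of the 10 phosphatases on a log scale, with 1 point per library (circles control, triangles silenced) and a bar at each group mean of 3. PTPN1 drops from about 105 to 36.2 CPM, PTPN14 rises from 154 to 192 CPM, and the groups of PTPN2, PTPN9, PTPN11, PTPN13 and PTPN18 overlap.

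PTPN14, a FERM-domain phosphatase known for holding back the transcriptional co-activator YAP1, was the member that rose. It stood at 150.5, 153.0 and 159.9 CPM in control and 181.4, 200.2 and 193.1 CPM in silenced cells. Every silenced library was above every control library. The mean went from 154 ± 4.87 to 192 ± 9.48 CPM (SD, n = 3), or 124% of control, with a log2 fold change of 0.31 (SE 0.0702) and an adjusted p of 0.0134 by edgeR. Its adjusted p stayed between 0.00235 and 0.0467 over the 13 alternatives.

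Among all tested genes, 8.75% passed as higher and 8.27% as lower at an adjusted p under 0.05, and 0.997% passed as lower with a fold over 2. Of the 10 members, 1 passed as higher, PTPN14, and 1 as lower, PTPN1, whose count follows from how it was chosen. PTPN1 alone had a fold over 2. The median log2 fold change was 0.01 over the 9 members other than PTPN1 and -0.00067 over all genes. The median absolute change of the 9 was 0.0465, against 0.199 over all genes. The 9 leave out the member chosen for its change. No comparison with genes of similar counts was made.

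The PEST-type phosphatases among the members are PTPN12 and PTPN18. PTPN12, which acts on p130Cas (BCAR1) at focal adhesions, stood at 65.8, 75.7 and 71.1 CPM in control and 80.6, 81.8 and 79.5 CPM in silenced cells. The silenced libraries were all higher, yet the log2 fold change of 0.18 (SE 0.0770) did not pass, with an adjusted p of 0.123 by edgeR. PTPN18 stood at 25.9, 24.4 and 24.3 CPM in control and 22.3, 25.3 and 25.9 CPM in silenced cells. Its groups overlapped, with a log2 fold change of -0.02 (95% interval -0.23 to 0.19) and an adjusted p of 0.928 by edgeR.

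PTPN3 and PTPN4 are a pair with FERM and PDZ domains. PTPN3 stood at 26.5, 28.2 and 29.6 CPM in control and 31.7, 30.7 and 32.8 CPM in silenced cells, all of the silenced libraries being higher. The log2 fold change was 0.17 (SE 0.0867) with an adjusted p of 0.192 by edgeR. PTPN4 stood at 19.9, 21.7 and 22.3 CPM in control and 18.2, 17.3 and 17.7 CPM in silenced cells, all of the silenced libraries being lower. Its log2 fold change was -0.27 (SE 0.0984) with an adjusted p of 0.0830 by edgeR. The nearest pair by protein sequence after PTPN1 and PTPN2 thus had estimates of opposite sign, neither past the test, and the difference between them was not tested.

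The large scaffold-like phosphatase PTPN13, which carries several PDZ domains, had the lowest level per kilobase of the 10. It stood at 5.76, 5.44 and 6.62 CPM in control and 5.86, 6.10 and 5.65 CPM in silenced cells. The groups overlapped, and at this depth the 95% interval ran from -0.40 to 0.34 (adjusted p = 0.940 by edgeR).

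PTPN9, which carries a lipid-binding domain and sits on vesicles, stood at 39.6, 37.0 and 35.5 CPM in control and 36.0, 40.3 and 35.5 CPM in silenced cells. The groups overlapped and the log2 fold change was -0.00 (95% interval -0.19 to 0.19, adjusted p = 0.997 by edgeR).

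PTPN11 (SHP2), whose SH2 domains bring it to receptor complexes and which promotes RAS activation, stood at 153.4, 167.8 and 172.6 CPM in control and 168.0, 175.7 and 166.7 CPM in silenced cells. The groups overlapped, with a log2 fold change of 0.05 (95% interval -0.11 to 0.21) and an adjusted p of 0.699 by edgeR. RPL6 overlaps exons of PTPN11 on the opposite strand and had 2996 to 5300 counts. Opposite-strand genes also overlap exons of PTPN13 (MAPK10, 0 to 2 counts) and PTPN14 (KRT18P12, 3 to 11 counts). Exons of PTPN1 are overlapped by AL133230.1, a symbol not among the counted genes. Strand use in counting is not given in the sources used here, so reads of these overlaps cannot be told apart.

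**Figure D2:**
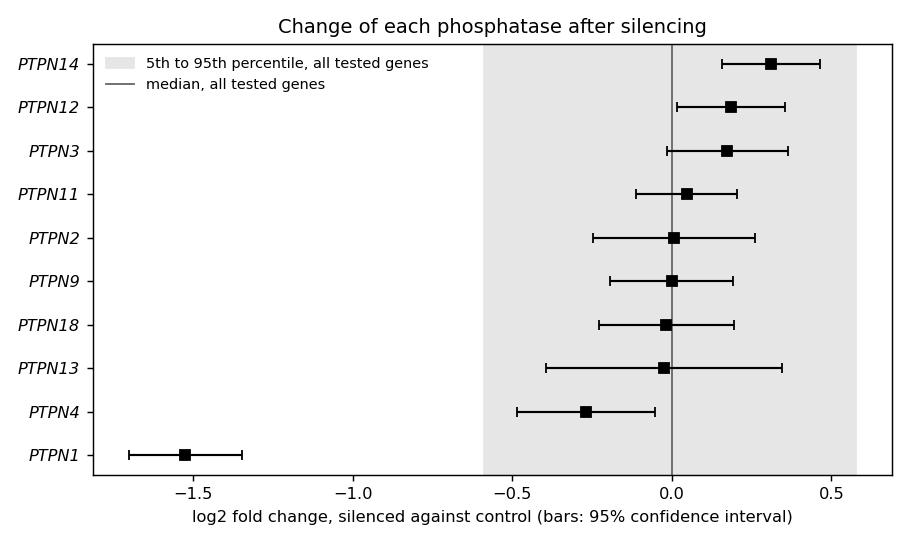
Log2 fold change of each member, silenced against control, with 95% confidence intervals from the fit over all genes. The band spans the 5th to 95th percentile of all tested genes (-0.59 to 0.58). PTPN1, at -1.53, lies outside it and the other 9 members lie inside it.

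By whether the groups overlapped, 19.1% of all tested genes had every silenced library above every control library and 17.5% the reverse. Of the 10 members, 3 lay above (PTPN3, PTPN12 and PTPN14) and 2 below (PTPN1 and PTPN4). The place of PTPN1 follows from how it was chosen. Of the 9 members other than PTPN1, 3 lay above and 1 below.

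The summed level of the 10 members was 633 ± 18.4 CPM in control and 617 ± 17.6 CPM in silenced cells (SD, n = 3). Without PTPN1 the sum was 529 ± 19.4 and 581 ± 19.1 CPM.

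To order the members by level, CPM was divided by the kilobases of exonic sequence. In control cells PTPN1 came first at 25.9 ± 0.266 CPM per kilobase, followed by PTPN11 at 23.4 ± 1.43. PTPN12 followed at 12.8, PTPN14 at 8.24, PTPN9 at 4.33, PTPN18 at 4.31, PTPN3 at 2.81, PTPN2 at 2.44, PTPN4 at 1.71 and PTPN13 at 0.626. On this scale PTPN9 and PTPN18 overlapped between libraries, while every other pair of neighbours was separate. The order depended on the length used. Per kilobase of the principal transcript alone PTPN11 (27.0) came before PTPN1 (26.1), PTPN2 moved from 8th to 6th place at 6.12, PTPN18 came 5th at 6.78, PTPN9 7th at 4.78 and PTPN3 8th at 4.19. PTPN12, PTPN14, PTPN4 and PTPN13 kept their places. In silenced cells PTPN1 was the 4th, at 8.97 CPM per kilobase, and overlapped with PTPN14 at 10.2.

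**Figure D3:**
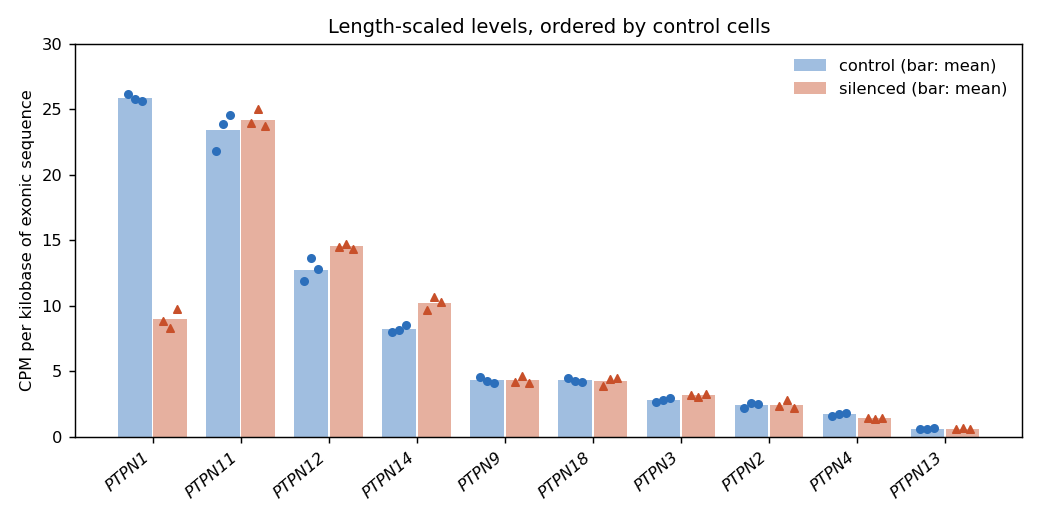
CPM per kilobase of exonic sequence, ordered by the control mean, with bars for means of 3 libraries and 1 point per library. PTPN1 goes from 25.9 to 8.97 while the other 9 members keep their order.

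The genes whose 6 log2 CPM values, centred on the control mean, lay nearest to those of PTPN1 were PSMC5, MAF1, FAM83H-AS1, C8orf33 and RPL10, out of the 12131 genes that averaged 50 counts or more in a library. Their Euclidean distances were 0.139, 0.250, 0.271, 0.318 and 0.372. PSMC5 went from 268 ± 13.5 to 92.0 ± 10.7 CPM, a log2 fold change of -1.54. Of these genes RPL10 may share reads with near-identical copies elsewhere in the genome.

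The word CCAATAA, searched on the transcript strand because an earlier analysis of these data had singled it out, was in the 3′ UTR of 3 of the 10 members. It is shown in capitals with its flanks on GRCh38, and it is no independent evidence of anything.
PTPN1: attttcttgaaCCAATAAtgtattaaaat
PTPN9: cttctgatctgCCAATAAatttttatcga
PTPN14: atatgaaatttCCAATAAtggaccatatt

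The word began at base 454 of 2526 in PTPN1, at base 2705 of 5518 in PTPN9 and at base 3977 of 9226 in PTPN14. Their log2 fold changes were -1.53, -0.00 and 0.31. Of 11537 tested genes with a 3′ UTR, 10.3% held the word, and 13.5% of the 2723 with a UTR within 1.5 times the length of that of PTPN1. The median log2 fold change was -0.11 with the word and 0.01 without it. The word came from these same data, so these medians are no test of it. All 4 coding genes named above as nearest to PTPN1 also held the word once. They were picked for a fall like that of PTPN1, so their matches lend the word no support. A match is a description of letters and not a site. Words complementary to bases 2 to 8 of the study's siRNA strands were searched in the same way. For the 4 strands of the 2 siRNAs, 5, 3, 5 and 2 of the 10 members held the word, against 16.6%, 7.21%, 21.1% and 10.1% of the 11537 genes and 25.8%, 11.4%, 33.2% and 15.4% of the 2723 genes of UTR length similar to PTPN1. The UTRs of the members run up to 9226 bases. PTPN1 held 1 of these words, that of the antisense strand of the first siRNA, which PTPN4 and PTPN18 held too. Which siRNA the sequenced cells received is not given in the sources used here.

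Of the other non-receptor phosphatases, 8 were in the table and 3 were tested, with 0 past the threshold by edgeR, 0 by DESeq2 and 0 at an unadjusted p under 0.05. PTPN23, an endosomal sorting protein, went from 168 ± 12.2 to 185 ± 14.9 CPM (adjusted p = 0.283 by edgeR). PTPN6 (SHP1), the blood-cell relative of PTPN11, went from 27.4 ± 2.21 to 26.9 ± 4.76 CPM (adjusted p = 0.929 by edgeR). PTPN21 went from 10.9 ± 1.19 to 8.88 ± 1.02 CPM, a log2 fold change of -0.31 (adjusted p = 0.175 by edgeR). Every silenced library of PTPN21 lay below every control library, as in 17.5% of all tested genes.

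Of 13 receptor-type phosphatases tested, 3 rose and 3 fell by edgeR, against 8.75% and 8.27% of all tested genes. Whether this list or those below differ from these shares was not tested. The list had a median log2 fold change of 0.02. DESeq2 called 3 higher and 1 lower, against 1170 higher and 1222 lower of all 15250 tested genes. PTPRM rose by 0.43 (SE 0.0773), PTPRH by 0.60 (SE 0.118) and PTPRE by 0.75 (SE 0.159) on the log2 scale. PTPRS had a log2 fold change of -0.52 (SE 0.112). The number past the test was 3 without silenced replicate 1, when PTPRS no longer passed.

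Of 18 substrates of PTPN1 and PTPN2, 6 rose and 2 fell by edgeR, against 8.75% and 8.27% of all tested genes. The list median was 0.15. JAK1, the cytokine receptor kinase, rose from 229 ± 29.98 to 315 ± 11.3 CPM and EGFR from 520 ± 55.8 to 671 ± 42.5 CPM. STAT6, a transcription factor of interleukin signalling, had a log2 fold change of -0.37 (SE 0.0640) and ERBB2 one of -0.31 (SE 0.0766). The number past the test was 2 without silenced replicate 1, 3 without control replicate 2 or silenced replicate 3, and 5 without control replicate 1 or silenced replicate 2. These are mRNA levels and carry no measure of phosphorylation. Of 11 JAK and STAT feedback inhibitors, SOCS3 (0.32) and PIAS1 (0.26, adjusted p = 0.0498 by edgeR) rose and 0 fell by edgeR. DESeq2 called 1 higher and 0 lower, with PIAS1 at an adjusted p of 0.0924. At an unadjusted p under 0.05 there were 3 higher and 0 lower, counts with no share of all genes beside them. The number by edgeR was 0 without silenced replicate 1 or any 1 control library, and 1 without silenced replicate 2 or 3.

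Of 14 adaptors of PTPN11 and genes of RAS activation, 5 rose and 0 fell by edgeR, against 8.75% and 8.27% of all tested genes. The list median was 0.22. DESeq2 called 4 higher and 0 lower, against 1170 higher and 1222 lower of all 15250 tested genes. At an unadjusted p under 0.05 there were 7 higher and 0 lower, counts with no share of all genes beside them. SPRED2 (0.46, SE 0.0816) and SPRED1 (0.59, SE 0.135) restrain RAS, CBL (0.37, SE 0.0715) is a ubiquitin ligase, and NRAS rose by 0.29 (SE 0.0761). The number was 2 without control replicate 2 and 3 without control replicate 1, control replicate 3, silenced replicate 1 or silenced replicate 2.

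Of 13 partners of PTPN12 at focal adhesions, 2 rose and 1 fell by edgeR, against 8.75% and 8.27% of all tested genes. The list median was 0.07. The kinases ABL2 (0.44, SE 0.0734) and PTK2 (0.40, SE 0.0758) rose, while PXN, the adhesion scaffold paxillin, had a log2 fold change of -0.51 (SE 0.0757).

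Of 21 genes of the Hippo pathway, to which PTPN14 belongs, 5 rose and 0 fell by edgeR, with a median of 0.15. The shares among all tested genes were 8.75% higher and 8.27% lower. DESeq2 called 4 higher and 0 lower, against 1170 higher and 1222 lower of all 15250 tested genes. At an unadjusted p under 0.05 there were 8 higher and 0 lower, counts with no share of all genes beside them. The YAP1 targets CYR61 (138 ± 9.06 to 204 ± 5.38 CPM) and ANKRD1 (1.06 ± 0.171 to 3.85 ± 0.213 CPM, log2 fold change 1.84) rose. ANKRD1 had only 11, 10 and 20 counts in the control libraries. CTGF, also a YAP1 target, did not rise, going from 10.2 ± 1.25 to 9.49 ± 0.447 CPM (log2 fold change -0.10, adjusted p = 0.683 by edgeR). The angiomotin-like genes AMOTL1 (0.44) and AMOTL2 (0.28) rose. The number of the list past the test was 3 without control replicate 1, control replicate 2, silenced replicate 1 or silenced replicate 2.

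**Figure D4:**
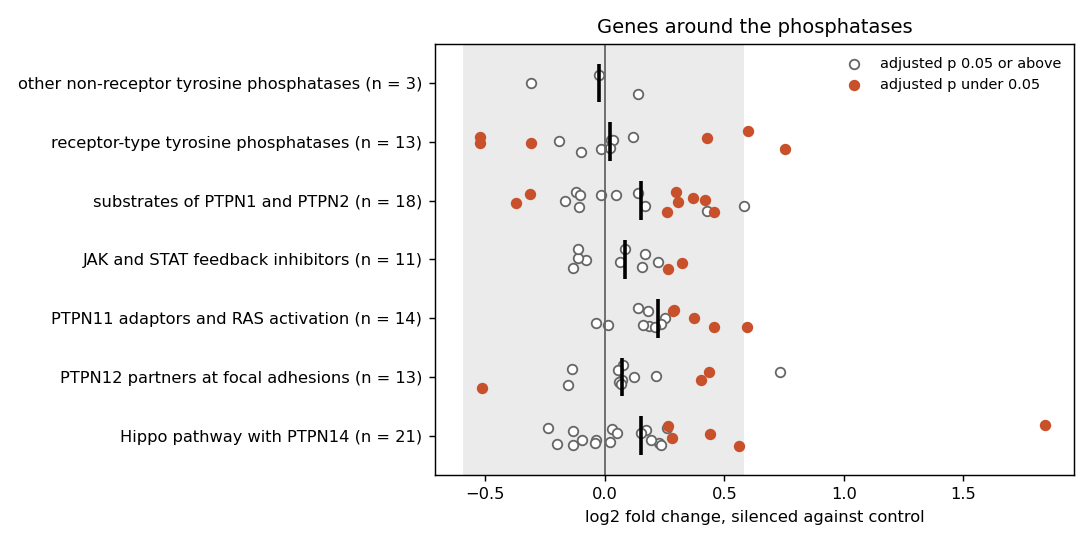
Log2 fold change of the tested genes of 7 lists around the phosphatases, silenced against control, filled where the adjusted p is under 0.05, with a bar at each list's median. The band is the 5th to 95th percentile of all tested genes. List medians run from -0.02 to 0.22, and ANKRD1 lies farthest out at 1.84.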

How the data were processed

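RNA-Seq libraries of total RNA from A549 cells were sequenced on an Ion Proton instrument. The authors mapped and counted reads per gene with MapSplice, and the deposited values are raw counts of reads per gene symbol (GRCh37 per the labels). The annotation, strand setting and treatment of multi-mapped reads are not given in the sources used here. The groups were taken from the sample titles.

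Genes were filtered with filterByExpr, counts were TMM-normalized and the groups were compared with the edgeR 4.0.16 quasi-likelihood test in R 4.3.3, with Benjamini-Hochberg adjustment over all 15250 tested genes. The SE of a log2 fold change is its size over the square root of F. The threshold was an adjusted p of 0.05. DESeq2 1.42.0 was an alternative. The scripts were tested on simulated data. Members and lists were chosen with earlier results of these data known. Named genes were the 10 members, FAM83H-AS1, up to 4 genes per list by smallest adjusted p (where none passed, the 2 with the highest mean CPM) and the 5 genes nearest to PTPN1 on log2(CPM + 0.5). Markers were named as a check of the cells.

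Sequences, lengths and positions came from GENCODE 29 (GRCh38), in which all 10 symbols matched. They were joined by symbol and no coordinate was converted. Proteins were translated and aligned with Biopython 1.88.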

Additional observations from a re-analysis of the deposited data

How the results depend on the processing

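PTPN1 kept its direction over 13 alternatives, with a log2 fold change of -1.59 to -1.47. These alternatives refit the libraries in which PTPN1 was chosen for its fall, so the range is a description and no test. PTPN3, PTPN4 and PTPN12 did not pass under any (adjusted p 0.0906 to 0.412, 0.0782 to 0.239 and 0.0789 to 0.301 by edgeR or DESeq2). At an adjusted p under 0.01, 0 members passed as higher, and genes numbered 469 higher, 434 lower and 62 lower with a fold over 2, against 1334, 1261 and 152. With all genes of at least 1 count, 1895 were lower and 338 of those by a fold over 2, and where each of the libraries had to hold 10 counts the latter was 101. The JAK and STAT list had 1 past the test under DESeq2, RLE factors, the filter of at least 1 count and thinned counts. Values near 0 changed sign. Under library size only PTPN9 was 0.0344, PTPN13 0.0131, PTPN18 0.0175 and PTPN6 0.0126. The median over all tested genes was 0.0348 there, against -0.00067 in the main fit. PTPN2 was -0.00431 with all genes of at least 1 count, and PTPN13 was 0.12 with thinned counts. The cause was not tested.

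Leaving out 1 library gave log2 fold changes of -0.100 to 0.0837 for PTPN2, -0.0604 to 0.0399 for PTPN9, -0.00260 to 0.0809 for PTPN11, -0.0876 to 0.0664 for PTPN13, -0.0629 to 0.0457 for PTPN18 and -0.144 to 0.108 for PTPN6. Genes higher numbered 634 to 1002, lower 591 to 1002, and lower with a fold over 2, 87 to 184, the lowest without silenced replicate 1. List counts ranged from 3 to 5 for receptor-type phosphatases, 2 to 6 for substrates, 0 to 1 for JAK and STAT inhibitors, 2 to 5 for PTPN11 adaptors and 3 to 5 for the Hippo pathway.

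Replicate numbers are shared between groups, but nothing says they mark a batch, and deviations of same-numbered libraries correlated at 0.160, 0.196 and 0.0711, so the libraries were not taken as paired. Every library correlated best with its own number, a hint from the data. With the replicate number as a block, 1714 genes were higher and 1735 lower, FAM83H-AS1 was at -1.71, and 1 member was higher and 1 lower as before.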
